A study of Mus musculus with 45 samples.

Results

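The 10 genes described here carry dietary lipid and bile acids through the absorptive cells of the small intestine. They are Fabp1, Fabp2, Fabp6, Apoa1, Apoa4, Apob, Apoc3, Mttp, Dgat1 and Slc10a2, and they were chosen by name for these functions. All 10 were found among the 52636 genes of both expression tables. The tables cover 45 libraries, 15 of sorted Lgr5-expressing stem cells and 30 of organoids, which are epithelial cultures grown from intestinal cells. Levels are given in CPM, the reads of a gene scaled to a common library total.

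In the Lgr5-DTReGFP line, a cassette with the diphtheria toxin receptor and eGFP sits in the Lgr5 gene and disrupts it, so heterozygous (HE) cells keep 1 intact copy and knockout (KO) cells keep none. The sorted eGFP+ve cells of this line came from the whole small intestine at E16.5 (2 HE pools of 7 and 8 embryos and 2 KO pools of 2 and 6 embryos, from litters 85 and 97), from that of 2 single HE embryos at E18.5, and from the duodenum and ileum of 2 HE mice of 2 months of age (mice 71 and 77). A second line supplied eGFP+ve/RFP+ve cells of the ileum from adults of 2 months of age, 48 hours after 2 mg of tamoxifen. The labels name 2 Lgr5-Cre/+ mice (HE) and 3 Lgr5-Cre/flox mice (cKO). In the cKO mice, Cre is driven from the Lgr5 locus and removes an exon of the floxed copy. The HE cells of both lines thus carry a disrupted Lgr5 copy, as do all sorted cells studied here. Organoids were grown from E17.5 embryos of the Lgr5-DTReGFP line, 3 wild type (WT10, WT5 and WT30) and 2 KO (KO7 and KO2), each culture from 1 embryo, and at passage 4 were kept in Rspondin 1, 2 or 3 (Rspo1, Rspo2, Rspo3) at 100 or 5 ng/ml.

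Absorbed fatty acids are bound in the enterocyte by small fatty acid-binding proteins, rebuilt into triglyceride and loaded onto apolipoprotein B in the endoplasmic reticulum, and the finished chylomicrons leave the cell for the lymph. Bile acids, which keep lipid in solution in the gut lumen, are taken up again mainly in the ileum by a sodium-dependent transporter and pass through the cell on their own binding protein. Rspondins are secreted proteins that bind Lgr receptors and strengthen Wnt signalling, which keeps crypt cells in a stem cell state.

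By role, Fabp1 (chr6:71199827-71205023) and Fabp2 (chr3:122895072-122899506) encode the liver and the intestinal fatty acid-binding protein, and Dgat1 (chr15:76502015-76511953) an enzyme of the last step of triglyceride synthesis. Apob (chr12:7977648-8016835) encodes the structural protein of chylomicrons and Mttp (chr3:138089854-138144968) the protein that transfers lipid to it. Apoa1 (chr9:46228580-46230466), Apoc3 (chr9:46232933-46235636) and Apoa4 (chr9:46240696-46243459), apolipoproteins on the particle surface, are neighbours on chromosome 9. Fabp6 (chr11:43596049-43601540) encodes the ileal bile acid-binding protein and Slc10a2 (chr8:5083219-5105351) the apical sodium-dependent bile acid transporter. Coordinates are of GRCm38 (GENCODE M21), and all 10 are protein-coding.

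The promoters of 4 genes are shown because these had the largest differences between ileum and duodenum, Apoa4 and Fabp1 toward the duodenum and Fabp6 and Slc10a2 toward the ileum. The sequences are those of RefSeq (GRCm38.p6), from 250 bases before to 50 after the start site, read 5′ to 3′ on the strand of the gene, with matches to 3 motifs in capitals. Promoters were found for 8 of the 10 genes, all but Apoc3 and Dgat1. The RefSeq start sites of the 4 genes shown differ from the gene starts given above. The Apoa4 gene given above starts at 46240696, so part of its window lies within that gene.
Apoa4 (chr9:46240594-46240893, + strand): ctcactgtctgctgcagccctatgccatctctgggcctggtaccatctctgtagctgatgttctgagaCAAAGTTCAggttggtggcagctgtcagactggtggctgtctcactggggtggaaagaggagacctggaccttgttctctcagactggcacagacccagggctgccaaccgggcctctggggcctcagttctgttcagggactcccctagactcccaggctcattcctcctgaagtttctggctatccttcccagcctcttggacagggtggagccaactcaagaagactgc
Fabp1 (chr6:71199629-71199928, + strand): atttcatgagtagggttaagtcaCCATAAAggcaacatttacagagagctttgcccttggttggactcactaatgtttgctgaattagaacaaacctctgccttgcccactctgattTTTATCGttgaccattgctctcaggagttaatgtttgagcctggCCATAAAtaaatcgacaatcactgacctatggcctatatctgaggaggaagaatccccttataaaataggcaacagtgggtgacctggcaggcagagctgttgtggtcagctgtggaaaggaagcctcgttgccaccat
Fabp6 (chr11:43601513-43601812, - strand): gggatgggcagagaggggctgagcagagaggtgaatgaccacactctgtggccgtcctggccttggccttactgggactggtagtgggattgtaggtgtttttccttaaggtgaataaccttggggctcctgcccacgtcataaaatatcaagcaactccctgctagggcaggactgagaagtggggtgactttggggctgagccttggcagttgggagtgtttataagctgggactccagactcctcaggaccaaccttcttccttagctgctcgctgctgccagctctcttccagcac
Slc10a2 (chr8:5105238-5105537, - strand): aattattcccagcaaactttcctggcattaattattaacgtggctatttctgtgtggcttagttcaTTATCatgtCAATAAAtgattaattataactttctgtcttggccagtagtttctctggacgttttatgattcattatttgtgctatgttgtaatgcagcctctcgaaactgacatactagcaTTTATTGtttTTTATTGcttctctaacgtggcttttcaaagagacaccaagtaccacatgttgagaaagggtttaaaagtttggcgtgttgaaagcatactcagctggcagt

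The motifs, searched on both strands, were CAAAGNNCA for HNF4, TTTATNG for CDX and GATAA for GATA factors, all of them families of regulators of the intestinal epithelium. The HNF4 letters were in 3 of the 8 promoters (Apoa4, Apob and Fabp2), against 6.36% of 32851 promoters of the same length. The CDX letters were in 4 of 8 (Apob, Fabp1, Fabp2 and Slc10a2), against 10.9%, and the GATA letters in 4 of 8 (Apoa1, Apob, Fabp1 and Slc10a2), against 25.4%. The Fabp1 and Slc10a2 promoters shown held 3 CDX matches each, the Apoa4 promoter 1 HNF4 match starting at -182, and the Fabp6 promoter none of the 3. Positions are counted from the RefSeq start site. In the Fabp1 promoter the CDX match at -133 and the GATA match at -132 overlap. These matches describe letters in a window and are no measure of binding.

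Before the results, a few facts bear on the libraries. Depth was 1275757 to 9970587 reads in sorted cells, with the E16.5 HE pools lowest (1275757 and 1982462 reads), and 18127670 to 33105171 reads in organoids. Lgr5 itself averaged 115 ± 14.7 CPM in the E16.5 HE pools and 58.2 ± 9.26 CPM in the KO pools (SD, n = 2), but it did not pass the test in KO against WT organoids in any of the 6 conditions. In the Cre line, Lgr5 averaged 70.2 CPM in the 2 libraries labelled HE and 96.4 CPM in the 3 labelled cKO, and reads outside the deleted exon cannot check this deletion. A dataset of the study gives 2 of these 5 libraries the other genotype (the first labelled HE is cKO there, and the second labelled cKO is HE), with which Lgr5 would average 98.4 CPM in HE and 77.5 CPM in cKO. Tests on the Cre line are given with the labels, with the other genotypes and without both libraries. Genes listed as markers of other cells were present in the sorted cells. Summed immune markers reached 2244 to 4160 CPM in the adult Lgr5-DTReGFP libraries against 10.7 to 14.3 CPM at E18.5. The immune marker Ptprc was only 56.9 and 71.4 CPM in adult duodenum and 12.2 and 27.05 CPM in adult ileum. Other listed genes thus carried most of the adult sum. Ptprc was 17.7 and 31.35 CPM in the E16.5 HE pools and 0.25 and 1.4 CPM at E18.5. The hepatocyte gene Alb lay between 0 and 0.85 CPM in all sorted cells. In bulk libraries, fewer cells of a type and less RNA per cell cannot be told apart.

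**Figure D1:**
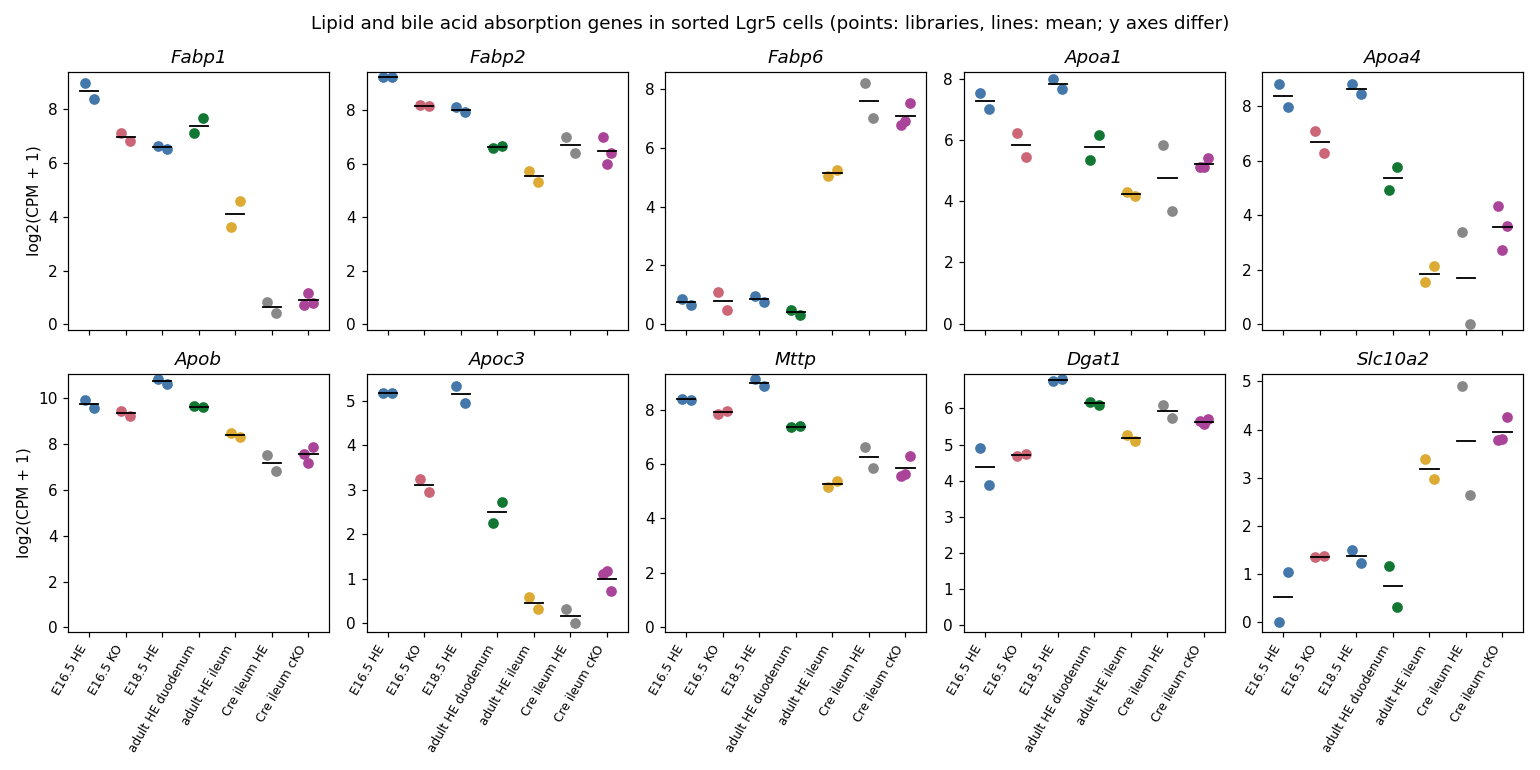
Level of each gene in sorted cells as log2(CPM + 1), by group, with 1 point per library and a line at the mean (n = 2, or 3 in Cre ileum cKO). Fabp6 and Slc10a2 are high only in the ileum groups, while Apoa4 and Apoc3 fall from 247 to 446 and 30.1 to 39.3 CPM in the fetal HE groups to below 4 and 1 CPM in the adult ileum of the Lgr5-DTReGFP line.

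Even in cells sorted as stem cells, most of the 10 genes were plainly detected. In CPM per kilobase of exon, the scale used for comparing genes, Fabp1 and Fabp2 led in the E16.5 HE pools at 751 ± 209 and 625.2 ± 3.7, followed by Apoa4 at 191 ± 76.8 and Apoa1 at 125 ± 31.6 (SD, n = 2). Apob (62.7 ± 10.9) and Mttp (54.5 ± 1.12) did not differ beyond their spread, and Slc10a2 stood last at 0.126 ± 0.179. The order changed with region: Fabp1 led in the adult duodenum at 307 ± 80 CPM per kilobase, and Fabp6 led in the adult ileum at 72.5 ± 7.68. In the ileum of the Cre line Fabp6 led by more, at 440 ± 240 in the libraries labelled HE and 286 ± 83.3 in those labelled cKO (SD, n = 2 and 3). The order of these 2 groups turned with the genotypes of the study's dataset, to 260 ± 13.5 in HE and 406 ± 193 in cKO. Fabp1 in the Cre line was near the floor at 0.35 to 1.25 CPM. In organoids Apoa4 led in each of the 12 groups, and Fabp6, at 0 to 1.1 CPM, was nearly absent.

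The first comparison asks whether loss of Lgr5 before birth alters these genes. At E16.5, Fabp1, Fabp2 and the surface apolipoproteins were lower in Lgr5 KO than in HE cells by 2.09- to 4.22-fold. Apob (1.40- and 1.27-fold in litters 85 and 97) and Mttp (1.47- and 1.32-fold) were lower too but did not pass the test. Whether these 2 genes differ from the others was not tested. Fabp1 was 496.9 and 333.45 CPM in the HE pools of litters 85 and 97 and 138.65 and 112 CPM in the KO pools. Apoc3 was 35.3 and 34.85 CPM in HE and 8.45 and 6.75 CPM in KO. Apoa4 was 444.4 and 247.2 CPM in HE and 135.2 and 77.05 CPM in KO. For Fabp1, Apoc3 and Apoa4 both KO pools lay below both HE pools, but the share of all genes that separated so was not counted.

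Tests on sorted cells used limma on log2(CPM + 1), and a gene was called at a Benjamini-Hochberg adjusted p below 0.1 with a fold change above 1.5. Of the 9 genes tested, 5 were called lower in KO and none higher, where 0.44% of all 17276 genes tested were called lower. The log2 fold changes were -2.08 (SE 0.28, adjusted p = 0.0384) for Apoc3, -1.70 (SE 0.19, adjusted p = 0.0198) for Fabp1 and -1.69 (SE 0.29, adjusted p = 0.0677) for Apoa4. Apoa1, at -1.42 (adjusted p = 0.0701), and Fabp2, at -1.07 (adjusted p = 0.0213), completed the 5. Apob (-0.41, adjusted p = 0.288) and Mttp (-0.48, adjusted p = 0.166) were not called, though for either gene the KO pools lay below the HE pools. Dgat1 (0.32) and Slc10a2 (0.85) were not called either, and Fabp6, at 0.4 to 1.15 CPM, was too low to test.

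A quasi-likelihood test of edgeR on whole reads recovered from these CPM called the same 5 genes (adjusted p of 0.00152 to 0.0154) among 315 genes. With limma the calls depended on the setting: none of the 5 remained with a pseudocount of 0.1 (adjusted p of 0.101 to 0.214) or with no filter on low genes (0.448). Summed mesenchymal markers were 884 and 1879 CPM in the HE pools and 193 and 539 CPM in the KO pools, and immune markers 59.7 to 121 against 9.3 to 25.9 CPM. Endothelial markers were 27.4 to 60.5 CPM in HE and 6.6 to 25.15 CPM in KO, Paneth markers 83.9 to 92.6 and 140 to 267 CPM, and goblet markers 366 to 393 and 490 to 776 CPM, with no overlap of these sums between genotypes. Stem cell markers were 1698 to 1777 CPM in HE and 2193 to 2387 CPM in KO. Enterocyte markers outside lipid handling were 2355 to 2463 CPM in HE and 2244 to 2252 CPM in KO, again without overlap. Hepatocyte, enteroendocrine and tuft cell sums overlapped. The markers without overlap moved with the genotype, and their part in the result was not tested.

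Other genes of fat absorption gave a mixed account in the same comparison. Of 16 other genes of lipid uptake and triglyceride synthesis, 2 were called lower and none higher: Rbp2, which binds retinol (-1.83, adjusted p = 0.0386), and Cd36, a fatty acid receptor (-1.61, adjusted p = 0.0677). Of 10 tested genes of chylomicron assembly and 8 of bile acid and sterol transport, none was called. Among 17 transcriptional regulators, Creb3l3, a liver and gut activator of apolipoprotein genes, was called lower (-1.50, adjusted p = 0.0896). Among enterocyte markers outside lipid handling, the lactase gene Lct was called lower (-1.51, adjusted p = 0.0386). The list medians were -0.23 for uptake and synthesis, -0.31 for assembly and 0.04 for bile acid and sterol transport, against -1.07 for the 9 of the 10 genes that were tested and 0.08 for all genes tested.

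From E16.5 to E18.5, Fabp1 and Fabp2 fell in HE cells and Apob, Mttp and Dgat1 rose, at shares close to those of all genes. Fabp1 went from 496.9 and 333.45 CPM to 98.95 and 91.15 CPM, and Fabp2 from 605.85 and 600.8 to 277 and 243.8 CPM. Dgat1 went from 29 and 13.65 to 106.55 and 111.05 CPM, and Apob from 981.25 and 766.75 to 1862.15 and 1606.05 CPM. The groups did not overlap for any of these 4 genes, but the share of all genes that separated so was not counted. Of 9 genes tested, 3 were called higher, Dgat1 (2.39, adjusted p = 0.00216), Apob (0.99, adjusted p = 0.00317) and Mttp (0.62, adjusted p = 0.00575), where 30.3% of all genes were called higher. Fabp1 (-2.09, adjusted p = 0.000656) and Fabp2 (-1.21, adjusted p = 0.000548) were called lower, as were 19.4% of all genes. Apoa1 (0.58), Apoa4 (0.24), Apoc3 (-0.03) and Slc10a2 (0.85) were not called.

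That comparison sets pools of embryos against single embryos. All 10 mesenchymal markers were called lower at E18.5, with sums of 87.0 to 91.6 CPM against 884 to 1879 CPM. Mean summed stem cell markers went from 1738 to 5194 CPM, and enterocyte markers outside lipid handling from 2409 to 4124 CPM. The part of all these markers in the changes was not tested. Mttp was not called under TMM scaling (0.56, below the fold limit). The 2 HE pools of E16.5 also serve in the comparison with KO, so the lower Fabp1 and Fabp2 of both comparisons rest on the same 2 high values.

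From E18.5 to adulthood most of the lipid genes fell. Apoa4 was 446.25 and 342.8 CPM in the E18.5 embryos, 29.45 and 53.65 CPM in adult duodenum and 1.95 and 3.45 CPM in adult ileum. Mttp was 562.5 and 480.55 CPM at E18.5, 163.95 and 168.6 CPM in duodenum and 34.55 and 41 CPM in ileum. For both genes every adult library lay below both embryos, and the ileum below the duodenum, but the share of all genes ordered so was not counted.

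With the 4 adult libraries against the 2 embryos, 7 of 10 genes were called lower, against 9.65% of the 19554 genes tested, and none was called higher. Apoa4 fell most, at -5.01 (SE 1.13, adjusted p = 0.024), then Apoc3 at -3.67 (adjusted p = 0.0115), Apoa1 at -2.84 (adjusted p = 0.0115) and Mttp at -2.70 (adjusted p = 0.0337). Fabp2 (-1.93), Apob (-1.73) and Dgat1 (-1.11, adjusted p = 0.0554) were the other 3. Fabp1, Fabp6 and Slc10a2 were not called, and for each of them the adult duodenum and ileum lay on opposite sides of the embryos. Fabp1 was 138.6 and 201.15 CPM in adult duodenum, above the 98.95 and 91.15 CPM of the embryos, and 11.45 and 23.35 CPM in adult ileum, below them. Set against the embryos alone, the duodenum gave a Fabp1 change of 0.81 (adjusted p = 0.00695) and the ileum one of -2.46 (adjusted p = 0.00105), while the ileum alone gave rises of 4.29 for Fabp6 (adjusted p = 4.26e-05) and 1.82 for Slc10a2 (adjusted p = 0.0049). Fabp6, at 0.95 and 0.7 CPM in the embryos, met the filter on low genes there only through the ileum.

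The adult call rests on having both embryos: without either E18.5 library, 0 of the 10 genes were called, the lone embryo being assumed to vary like the adult libraries. The adult libraries of a mouse are not independent, and with the mean of both regions per mouse 8 genes were called lower, Fabp1 added, and Fabp6 was called higher (1.92, adjusted p = 0.000578). Fabp6 again met the filter only through its adult values. The embryonic cells came from the whole small intestine and the adult cells from single regions. All 6 Paneth and all 4 tuft cell markers were called higher in the adult libraries, and 8 of 9 mesenchymal markers lower. Summed stem cell markers were 4996 to 5391 CPM at E18.5 and 6812 to 9812 CPM in the adult libraries. Enterocyte markers outside lipid handling were 3886 to 4362 CPM and 2696 to 3503 CPM. The part of these cells in the result was not tested. Of the other lists, 11 of 16 uptake and synthesis genes were called lower, led by Dgat2 (-3.38) and Mogat2 (-2.99), enzymes of triglyceride synthesis. Of 10 assembly genes 3 were called lower and 1 higher, and of 9 genes of bile acid and sterol transport 3 were called lower and 3 higher. Among regulators 9 of 17 were called lower and 1 higher, led by Prdm1 (-4.36), a transcriptional repressor of the fetal gut epithelium, and Creb3l3 (-3.38).

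Between the 2 adult regions all 10 genes were called, though Fabp6, Slc10a2 and Apoc3 met the filter on low genes only in the region where they were high. In adult mice 71 and 77, the 8 lipid genes were higher in the duodenum, and both bile acid genes were higher in the ileum, where bile acids are recovered. Fabp6 was 32.15 and 37.35 CPM in the ileum and 0.4 and 0.25 CPM in the duodenum. Slc10a2 was 9.5 and 6.9 CPM in the ileum and 1.25 and 0.25 CPM in the duodenum. The lowest of these values stand for 1 or 2 reads, so no ratio is given for them, and the log2(CPM + 1) scale understates such changes.

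The 2 genes called higher in ileum were Fabp6 at 4.75 (SE 0.27, adjusted p = 0.000698) and Slc10a2 at 2.44 (SE 0.38, adjusted p = 0.0165), against 2.24% of all genes. Against 4.64% of all genes, 8 were called lower. Apoa4, at -3.49 (SE 0.35, adjusted p = 0.0043), and Fabp1, at -3.27 (SE 0.33, adjusted p = 0.0043), had the largest falls, and Apoa4 was 15.1 and 15.6 times higher in the duodenum of mice 71 and 77. Mttp (-2.11), Apoc3 (-2.04), Apoa1 (-1.52), Apob (-1.24), Fabp2 (-1.11) and Dgat1 (-0.96, adjusted p = 0.0233) followed. Apoc3 was 3.75 and 5.65 CPM in duodenum and near the floor in ileum, at 0.5 and 0.25 CPM. Apob was 807.3 and 790.1 CPM in duodenum and 360.75 and 316.35 CPM in ileum, a fold of 2.36 against 11.3 for Apoa4. In each mouse each of the 10 genes differed in the direction given, and the share of all genes that agreed between the mice was not counted. With no filter on low genes 5 stayed called (Fabp6 higher and Fabp1, Apoa4, Apob and Mttp lower), and 9 were called with any 1 library left out.

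The regulators that passed the test were also lower in ileum: Gata4, a regulator of proximal gut identity (-3.57), Creb3l3 (-2.27), and the lipid-sensing receptors Ppara (-1.30) and Pparg (-1.26), 4 of 17. Nr1h4, the bile acid receptor, was the only one of 8 tested genes of bile acid and sterol transport to be called, and it was higher in ileum (1.25). Of other lipid genes, 3 of 16 for uptake and synthesis were called lower (Rbp2 at -4.55, Cd36 and Mogat2), and 3 of 10 for assembly (Prap1 at -3.18, Cideb and Tm6sf2). Enterocyte markers were split, with 7 of 16 lower and 2 higher, and 1 of 12 stem cell markers was called. All 4 tuft cell markers were lower in ileum, with sums of 1713 to 3003 CPM in duodenum and 208 to 420 CPM in ileum, and their part in the result was not tested.

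**Figure D2:**
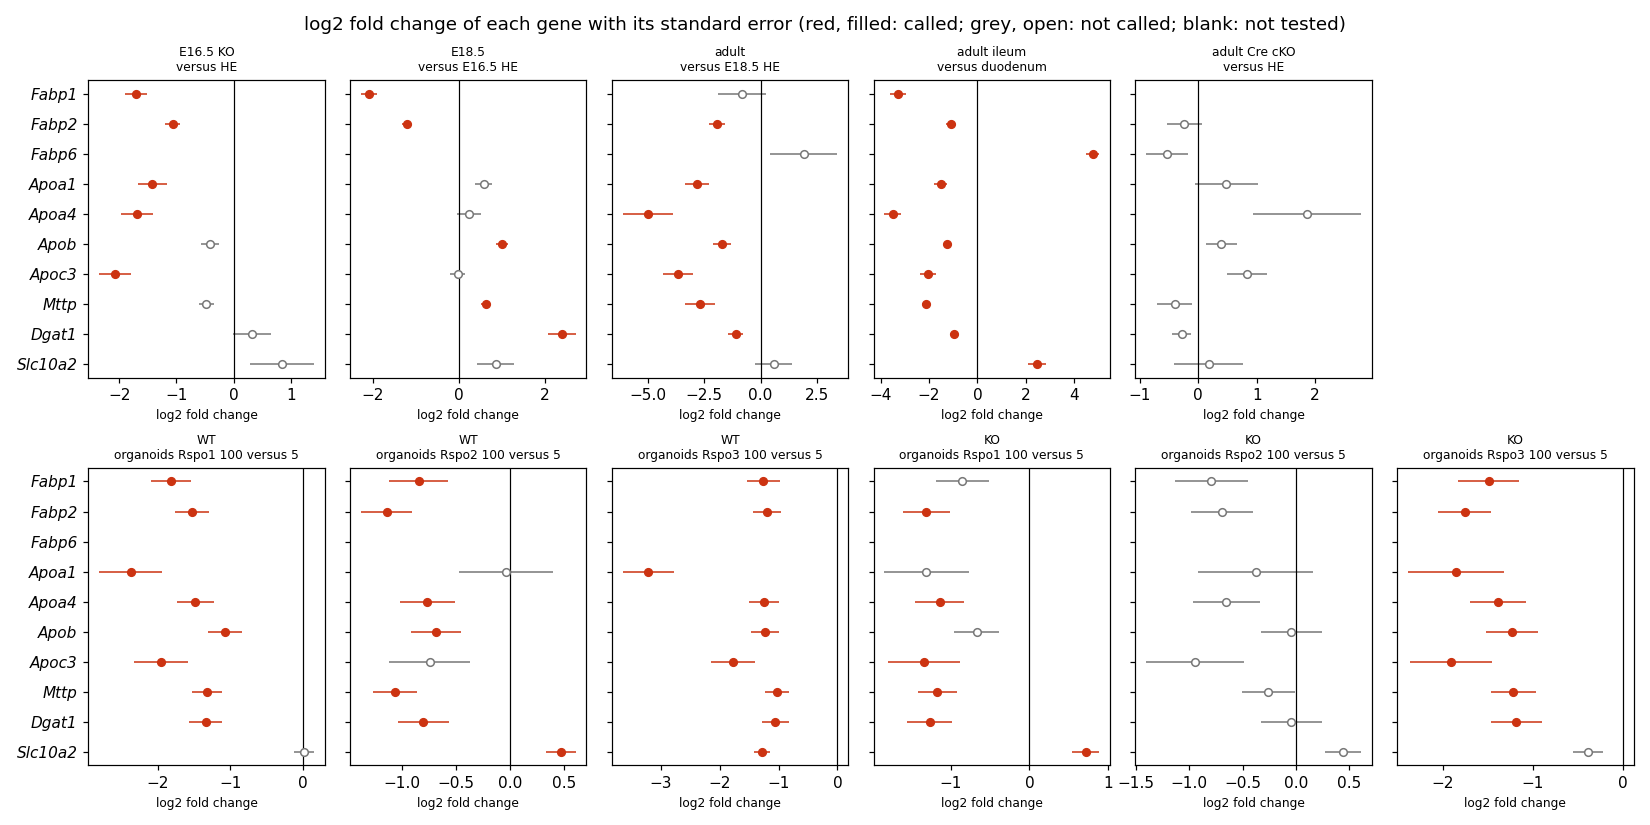
log2 fold change of each gene (x axis) with its standard error, for the 5 sorted-cell comparisons and the 6 comparisons of 100 with 5 ng/ml Rspondin. Filled red points were called, open grey ones were not, and Fabp6 in organoids is blank because it was not tested. All 10 genes are red between ileum and duodenum, and none is red in the Cre line or in KO organoids with Rspo2.

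In adult ileum after acute deletion of Lgr5, no change of these genes was detected. With the deposited labels, 0 of the 9 genes tested were called by limma, against 0.0504% of 19848 genes, and 1 member (Apoc3) and 902 genes in all had an unadjusted p below 0.05. Apoc3 was near the floor, at 0.25 and 0 CPM in HE and 1.15, 1.25 and 0.65 CPM in cKO. It met the filter of 1 CPM only through libraries labelled cKO, 1 of them disputed, so nothing is drawn from its p. Apoa4 had the largest difference, 1.86 (adjusted p = 0.864), from 9.4 and 0 CPM in the libraries labelled HE to 19.1, 5.6 and 11.05 CPM in those labelled cKO. Fabp6 was 292.1 and 129.35 CPM in HE and 108.35, 120.2 and 182.6 CPM in cKO, so the groups overlapped. Slc10a2, at 28.95 and 5.2 CPM in HE and 12.7, 12.95 and 18.25 CPM in cKO, overlapped as well. The differences of Fabp6 (-0.54), Fabp2 (-0.24), Mttp (-0.41) and Dgat1 (-0.29) turned sign with the genotypes of the study's dataset (0.52, 0.60, 0.42 and 0.16), none being called, while Apoa4 was 2.40 and Slc10a2 went from 0.18 to 1.10. Without both disputed libraries Apoa4 was 3.96, Fabp6 0.12 and Slc10a2 1.39, with 1 HE library left. With the genotypes of the study's dataset 1 gene was called, Apob (0.67 higher in cKO, adjusted p = 0.0726), and without both disputed libraries none was (lowest adjusted p = 0.17).

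In organoids, the dose of Rspondin moved most of the lipid genes. The 8 lipid genes were higher at 5 than at 100 ng/ml in both genotypes with Rspo3 and in WT with Rspo1. With Rspo3, Apob was 2814.45, 2132.4 and 2350.9 CPM at 100 ng/ml and 6067.6, 5461.7 and 5564.25 CPM at 5 ng/ml in cultures WT10, WT5 and WT30. In KO7 and KO2 it was 2075.6 and 1941 CPM at 100 ng/ml and 4683.95 and 4751.4 CPM at 5 ng/ml. Every library at 5 ng/ml lay above every library at 100 ng/ml, in both genotypes.

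Apoa1, a protein of the particle surface that later passes to high-density lipoprotein, spanned the widest range with Rspo3. It was 150.1, 89.15 and 89.35 CPM at 100 ng/ml and 1064.8, 885.85 and 1039.45 CPM at 5 ng/ml in the WT cultures, a log2 fold change (100 minus 5 ng/ml) of -3.21 (SE 0.44, adjusted p = 2.46e-06). With Rspo2 it was 183.15, 117.45 and 47.35 CPM at 100 ng/ml and 136.85, 98 and 82.35 CPM at 5 ng/ml, which overlapped (-0.04, adjusted p = 0.956). Apoa4 with Rspo1 was 615.3, 531.25 and 636.05 CPM at 100 ng/ml and 1811.4, 1505.05 and 1681.3 CPM at 5 ng/ml in WT, a change of -1.49 (adjusted p = 5.64e-05).

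**Figure D3:**
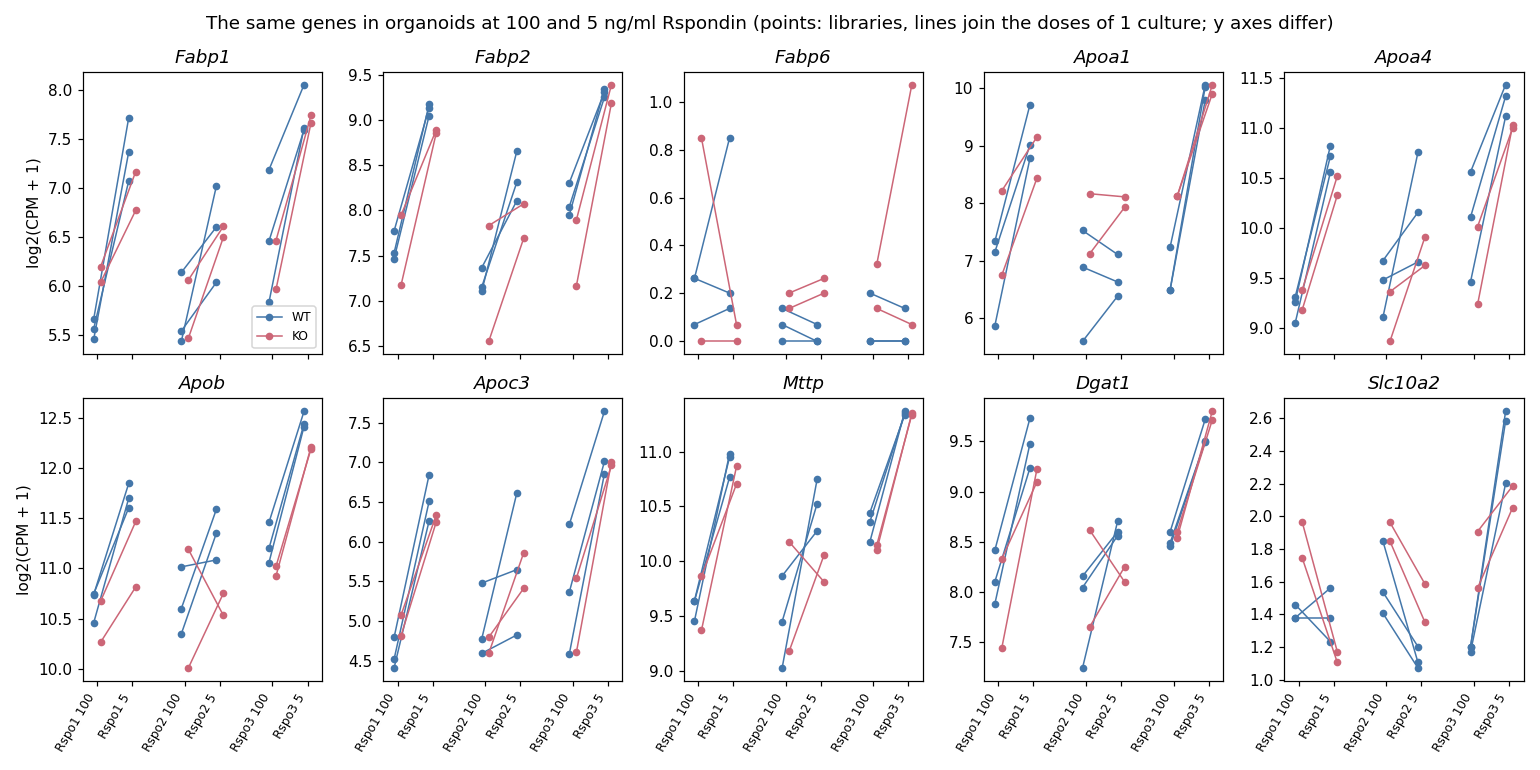
Level of each gene in organoids as log2(CPM + 1), with a line from 100 to 5 ng/ml for each culture (WT blue, KO red) and ligand. The lines of the 8 lipid genes rise toward 5 ng/ml in all 5 cultures with Rspo1 and with Rspo3, while with Rspo2 those of Apob, Mttp and Dgat1 fall in KO2 and that of Apoa1 falls in WT10, WT5 and KO2. Y axes differ between genes.

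All 30 organoid libraries entered 1 fit, and a gene was called at an adjusted p below 0.05. Over the 6 dose comparisons (3 ligands in 2 genotypes), calls ran as follows, with 9 genes tested each time. In WT organoids with Rspo1, 8 were lower at 100 than at 5 ng/ml (12.5% of all genes), all but Slc10a2. With Rspo3, 9 were lower (13.7% of all genes), Slc10a2 included at -1.29 (adjusted p = 1.15e-07). With Rspo2, 6 were lower (9.12% of all genes), from -1.15 for Fabp2 to -0.69 for Apob, and Slc10a2 was higher at 0.47 (adjusted p = 0.0132), as were 24.3% of all genes.

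KO organoids gave 8 lower genes with Rspo3 (11.8% of all genes), from -1.91 for Apoc3 to -1.18 for Dgat1. With Rspo1 they gave 5 lower genes (7.86% of all genes), namely Fabp2, Apoa4, Apoc3, Mttp and Dgat1, and Slc10a2 was higher at 0.72 (adjusted p = 0.00342), against 21.9% of all genes. With the culture as a block 8 genes were lower there, Fabp1 (adjusted p = 0.0209), Apoa1 (adjusted p = 0.00572) and Apob (adjusted p = 0.0422) being added. With Rspo2, 0 of 9 were called in KO organoids by limma, against 0.115% of all genes, and 4 members and 1327 genes had an unadjusted p below 0.05. In that group the cultures disagreed: Apob was 1027.7 CPM at 100 and 1723.3 CPM at 5 ng/ml in KO7, and 2337.1 and 1478.95 CPM in KO2. Mttp (1157.05 and 897.15 CPM) and Dgat1 (392.15 and 273.8 CPM) were likewise lower at 5 ng/ml in KO2 alone.

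Counted over the 15 pairs of libraries of the same culture and ligand, Fabp1, Fabp2, Apoa4 and Apoc3 were higher at 5 ng/ml in all 15, Apob, Mttp and Dgat1 in 14, and Apoa1 in 12. The median ratio of 5 to 100 ng/ml ran from 2.01 for Apob to 3.44 for Apoa1. Slc10a2, at 1.1 to 5.25 CPM, was higher at 5 ng/ml in 6 of 15, that is in the 5 with Rspo3 and 1 other. The pairs share 5 cultures and are no independent replicates, and the share of all genes that agreed so over the pairs was not counted. TMM scaling lowered the median log2 fold change of these genes by a further 0.084 to 0.343 in the 6 comparisons and ended the call of the WT Rspo2 rise of Slc10a2 (0.32, adjusted p = 0.0851). Counts also changed when a culture was left out, which in KO leaves 1 library per group whose spread is taken from the other groups: without WT30 no gene was called in WT with Rspo2 and without WT10 4 were, without KO2 4 were called in KO with Rspo3 and 3 with Rspo1, without KO7 1 was called with Rspo1, and without KO2 1 was called with Rspo2.

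The shift ran across the fat absorption lists. In WT organoids with Rspo3, 13 of 16 uptake and synthesis genes and 10 of 11 assembly genes were called lower at 100 ng/ml. So were 7 of 10 of bile acid and sterol transport, against 13.7% of all genes, and 1 assembly gene was higher. The lists were chosen with earlier results of these data known, so these counts are a description. The list medians were -0.93, -0.95 and -0.86 against 0.24 for all genes. The largest falls were those of Gpat3 (-2.06), an enzyme early in triglyceride synthesis, Apoc2 (-1.80), which activates lipoprotein lipase, and Slc51b (-2.30), a subunit of the basal bile acid exporter. Of 17 regulators 8 were lower, among them Creb3l3 (-1.71), and 1 was higher. All 12 stem cell markers were called higher at 100 ng/ml in each ligand and genotype apart from KO with Rspo2, where 1 was. Summed stem cell markers ran from 182 to 7022 CPM over the 30 libraries and the sum of the 10 genes from 2572 to 13952 CPM, opposite in direction, and how far one change follows from the other was not tested. Other markers moved with the dose too: from 100 to 5 ng/ml, mean summed enterocyte markers outside lipid handling went from 4829 to 9053 CPM in WT with Rspo1 and from 9176 to 13536 CPM with Rspo3, and Paneth markers from 1177 to 287 CPM and from 590 to 127 CPM. Hepatocyte markers went from 32.2 to 140 CPM and from 64.2 to 190 CPM, with Alb at no more than 11.95 CPM. Most of this rise was in Afp, with means of 13.25 and 116.3 CPM with Rspo1 and 46.3 and 165.4 CPM with Rspo3. Ttr, of the same list, fell from 6.18 to 3.53 CPM and from 4.87 to 1.92 CPM. The part of all these markers in the result was not tested, and mesenchymal markers summed to no more than 18.45 CPM.

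**Figure D4:**
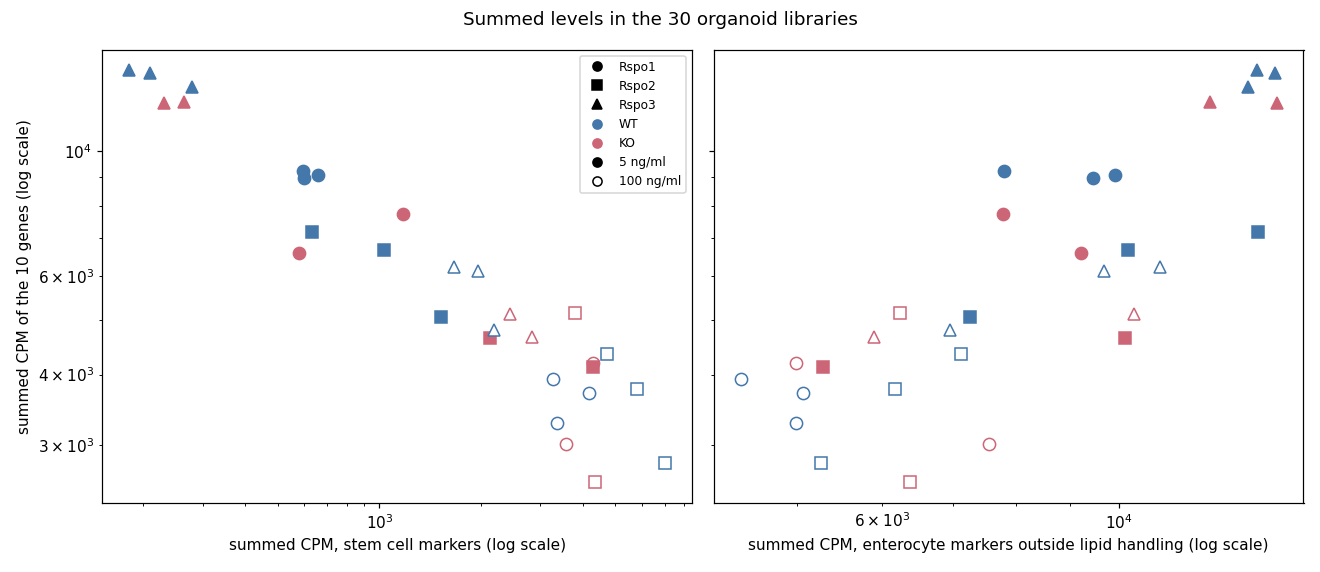
Summed CPM of the 10 genes (y axis) against summed stem cell markers (left) and summed enterocyte markers outside lipid handling (right), both axes on a log scale, in 30 organoid libraries. Filled symbols are 5 ng/ml and open ones 100 ng/ml, symbols mark the ligand and colours the genotype, and the 5 filled triangles of Rspo3 at 5 ng/ml lie highest.

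Genotype left no call on these genes in organoids. KO against WT gave 0 of 9 called by limma in each of the 6 conditions, where between 0.125% and 4.54% of all genes were called: 0.214% with Rspo1 at 100 ng/ml, 0.125% with Rspo1 at 5, 1.2% with Rspo2 at 100, 4.54% with Rspo2 at 5, 0.868% with Rspo3 at 100 and 0.193% with Rspo3 at 5. Of the 54 tests, 10 had an unadjusted p below 0.05 and the lowest adjusted p was 0.116 (Slc10a2 with Rspo3 at 100 ng/ml, 0.54 higher in KO). Apoa1 with Rspo3 at 100 ng/ml was 276.45 and 277.2 CPM in KO and 150.1, 89.15 and 89.35 CPM in WT (1.37, adjusted p = 0.247), the largest difference. Averaged over the 6 conditions by culture, 0 of 9 were called (0.152% of all genes), and 1 had an unadjusted p below 0.05. Without KO2, 1 gene was called with Rspo3 at 100 ng/ml.

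Whether the dose effect differed between genotypes was tested as an interaction. With Rspo1 and with Rspo3, 0 of 9 genes were called (0.0% of all genes in both), and with Rspo2 none was (0.439% of all genes), with 4 of 27 tests at an unadjusted p below 0.05. The largest interaction was 1.36 for Apoa1 with Rspo3 (KO minus WT, SE 0.69). Without KO7, 1 gene was called with Rspo2. The KO, WT and dose comparisons share their libraries, so their values are not independent.

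The 3 ligands were compared with Rspo1 at the same dose, in 4 comparisons at each dose that share the Rspo1 libraries. At 100 ng/ml none of the genes was called by limma, where 0.204% (WT, Rspo2), 0.00523% (WT, Rspo3), 0.0105% (KO, Rspo2) and 0.0% (KO, Rspo3) of all genes were, and 7 of 36 tests had an unadjusted p below 0.05. In WT organoids with Rspo3, Fabp1 was 86.85, 56 and 144.45 CPM against 49.55, 46.2 and 42.8 CPM with Rspo1 (0.93, SE 0.28, adjusted p = 0.0839). With the culture as a block Fabp1 (adjusted p = 0.0179), Fabp2 (0.0486), Apoa4 (0.0217) and Mttp (0.0227) were called higher there, and with TMM scaling Mttp was (adjusted p = 0.0478).

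At 5 ng/ml the ligands separated. Of these ligands, only Rspo2 gave full survival at this dose in the paper, so equal doses need not mean equal culture states. The part of survival in the differences between ligands was not tested. In WT organoids with Rspo2, 4 genes were lower than with Rspo1 (6.35% of all genes): Apoa1 at -2.46 (SE 0.44, adjusted p = 0.000636), Dgat1 at -0.86, Fabp1 at -0.83 and Fabp2 at -0.76. Apoa1 there was 136.85, 98 and 82.35 CPM against 835, 513.85 and 437.3 CPM with Rspo1. In KO organoids with Rspo2, 3 were lower (4.36% of all genes): Fabp2 at -0.99, Dgat1 at -0.98 and Mttp at -0.85, though the fit of these groups alone called none. With Rspo3, Apob (0.76 in WT and 1.06 in KO) and Slc10a2 (1.09 and 0.98) were higher than with Rspo1 in both genotypes, 2 genes each (3.69% of all genes in WT and 3.13% in KO). In KO the fit of these groups alone called 6 higher, adding Fabp1, Apoa1, Apoc3 and Dgat1. Slc10a2 was 5, 3.6 and 5.25 CPM with Rspo3 and 1.35, 1.95 and 1.6 CPM with Rspo1 in WT, and 3.15 and 3.55 against 1.15 and 1.25 CPM in KO, with no overlap in either. The share of all genes without overlap there was not counted. A block for culture added Apoa1 with Rspo3 in WT (adjusted p = 0.0455) and KO (adjusted p = 0.0175), and Apoc3 with Rspo2 in WT (adjusted p = 0.0226). With a culture left out, the spread of a lone KO library again being taken from the other groups, the counts with Rspo2 changed, as WT gave 1 without WT10 or without WT5, and KO gave 1 without KO2 and 0 without KO7. With Rspo3, WT gave 1 with each of its 3 cultures left out in turn, and KO gave 1 without KO7.

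Correlations across libraries describe how far the genes varied together. Over the 15 sorted-cell libraries, Pearson correlations between 2 lipid genes ran from -0.31 to 0.96 with a median of 0.81, those between a bile acid and a lipid gene from -0.96 to 0.14 with a median of -0.77, and Fabp6 with Slc10a2 gave 0.94. Dgat1 stood apart from the other lipid genes in sorted cells, at -0.31 to 0.16 with each of them, against 0.11 with Fabp6 and 0.14 with Slc10a2. Over the 30 organoid libraries lipid genes correlated at 0.72 to 0.97 with each other and at 0.23 to 0.55 with Slc10a2. These values are descriptions, since libraries share animals, cultures and composition. The genes most like the mean of the members were Creb3l3 (0.97), Slc5a11 (0.96), S100g (0.95), Gm10680 (0.95) and Alpi (0.95) in sorted cells, and Cgref1 (0.98), Pxdc1 (0.98), Btnl6 (0.98), Tmbim6 (0.98) and Btnl5-ps (0.98) in organoids.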

How the data were processed

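RNA was sequenced from 15 sorted-cell libraries (Ovation SoLo kit) and 30 organoid libraries (NEBNext kit after removal of ribosomal RNA). Per the submitters' notes, the authors trimmed reads with Trimmomatic 0.36, mapped them to GRCm38.p4 with STAR 2.5.3a and counted them per gene with HTSeq 0.9.1, and they deposited CPM for 52636 genes in 1 table for each set, rounded up to the next 0.05. The depth of each library was worked out from the step between its smallest CPM values and limits the precision of low genes. The sets were analysed separately.

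Values were taken as log2(CPM + 1), on which a fold change understates that of low genes. limma 3.58.1 in R 4.3.3 (lmFit, eBayes with a trend, Benjamini-Hochberg adjustment over all genes tested) was applied to the 2 groups compared for sorted cells, for genes that reached 1 CPM in a number of libraries equal to the size of the smaller group, and to all 30 organoid libraries in 1 fit of 12 group means, with at least 1 CPM in at least 2 libraries. The code was tested on simulated data. edgeR 4.0.16 was run on whole reads for the E16.5 pools, where 100% of values up to 20 reads came out whole after rounding up to 0.05 CPM. In the other libraries whole reads were not recovered. The named genes are the 10 members, up to 4 called genes of each other list with the largest changes, the 5 genes most like the members in each set, and Lgr5. Alb, Afp, Ttr and Ptprc are named as single markers of their lists. Members, lists and motifs were chosen with earlier results of these data known. Correlations are Pearson's over libraries.

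Same-numbered samples were checked for pairing. Litters at E16.5 (correlation of deviations -0.0324), adult mice (0.257) and organoid cultures (0.162 to 0.774 over 35 pairs) share an origin, so the fits with that number as a block are printed where they change a call. Replicate numbers of the Cre line and of E18.5 mark no shared origin. Each litter pool, embryo, mouse or culture is 1 sample. The 2 Cre libraries whose genotype differs in the study's dataset kept the deposited labels. The alternatives were a pseudocount of 0.1, other filters, TMM scaling, other fits and thresholds, single regions, and each library or culture left out. A marker gene of the enterocyte list is not reported here.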

Additional observations from a re-analysis of the deposited data

How the results depend on the processing

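The number of genes called held its size for most comparisons and settings, and 106 of 2534 single-gene values changed sign under an alternative. Of these, 105 were called in neither fit, among them 4 of the Cre line with the genotypes of the study's dataset. The other was the Fabp1 change from E18.5 to adult, -0.83 and not called with both regions, which was 0.81 and called with the duodenum only. For E16.5 KO versus HE, the count of 5 became 0 with a pseudocount of 0.1 and with no filter, and 3 at an FDR of 0.05 with no fold limit and in 1 fit of all 15 sorted-cell libraries. It was 5 to 6 with a library left out. For adult versus E18.5, the count of 7 was 0 to 7 with a library left out. Ileum versus duodenum fell from 10 to 5 with no filter. The Cre comparison rose from 0 to 1 with the genotypes of the study's dataset. The causes were not tested. Counted over single genes and comparisons, leaving out a library or culture kept the call of 910 values, ended 54 and added 10, while TMM scaling kept 256, ended 2 and added 5.

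With a culture left out, the count was 0 to 8 for WT Rspo2 dose, 1 to 3 for KO Rspo1 dose, 0 to 1 for KO Rspo2 dose, 4 to 7 for KO Rspo3 dose, 0 to 1 for KO versus WT at Rspo3 100 and for the Rspo2 interaction, 1 to 4 for WT Rspo2 versus Rspo1 at 5, 1 to 1 for WT Rspo3 versus Rspo1 at 5, 0 to 1 for KO Rspo2 versus Rspo1 at 5, and 1 to 2 for KO Rspo3 versus Rspo1 at 5. With no filter, WT Rspo2 versus Rspo1 at 5 gave 2 and WT Rspo3 versus Rspo1 at 5 gave 1. A mean of at least 10 CPM gave 1 for Rspo3 versus Rspo1 at 5 in WT and in KO. The fit of the groups compared only gave 0 for KO Rspo2 versus Rspo1 at 5 and 6 for KO Rspo3 versus Rspo1 at 5. WT Rspo3 versus Rspo1 at 100 rose from 0 to 1 with TMM scaling and to 4 with the replicate block.

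The block, for litter, mouse or culture, also added single genes: Apoc3 for WT Rspo2 dose (adjusted p = 0.0333) and Slc10a2 for KO Rspo3 dose (adjusted p = 0.0391). Where replicates share only a number it added Slc10a2 from E16.5 to E18.5 (adjusted p = 0.0975), and the deviations there correlated at -0.0186, against 0.161 and 0.419 in the Cre line. It ended none of the calls, and KO versus WT cannot be fitted with a culture block. edgeR was not run for other sorted comparisons, where whole reads were not recovered. Groups of 2 or 3 samples and the depth of the E16.5 pools limit what low genes such as Fabp6 and Slc10a2 can show.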
